A study of Mus musculus with 20 samples.

Results

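The genes described here are 10 cytochrome P450 genes of the mouse Cyp2b and Cyp3a families: Cyp2b9, Cyp2b10, Cyp2b13, Cyp3a11, Cyp3a13, Cyp3a16, Cyp3a25, Cyp3a41a, Cyp3a41b and Cyp3a44. They were taken by symbol from a table of raw counts with 46095 gene symbols, and all 10 had counts. Bulk RNA sequencing was carried out on livers of 20 mice in 4 groups of 5, to examine the role of Pck1, an enzyme of gluconeogenesis, in diet-induced non-alcoholic steatohepatitis (NASH). The groups were wild-type (WT) mice on chow, WT mice on the NASH diet, mice with a conditional, liver-specific knockout of Pck1 (Pck1-cKO, here KO) on chow, and KO mice on the NASH diet. Each diet was given for 24 weeks, the mice were 31 to 33 weeks old, and no xenobiotic is named for any group. The sources used here do not give the Cre driver, the strain or the sex of the mice.

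These enzymes are haem proteins of the endoplasmic reticulum that oxidise drugs, steroids and bile acids. Cyp2b10 is the classical target of the constitutive androstane receptor CAR (Nr1i3), and Cyp3a11 is that of the pregnane X receptor PXR (Nr1i2). Both receptors bind DNA together with the retinoid X receptor RXR. In mouse liver Cyp2b9, Cyp2b13, Cyp3a41a, Cyp3a41b and Cyp3a44 are also known as female-predominant genes, a pattern set by the sex-specific rhythm of growth hormone release, which acts through STAT5. Cyp3a16 is known as a fetal and neonatal form, and Cyp3a13 and Cyp3a25 are further Cyp3a enzymes of liver and gut.

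The Cyp2b members lie on chromosome 7 of GRCm38 and the Cyp3a members on chromosome 5, all as protein-coding genes in the GENCODE annotation. Cyp2b9 spans chr7:26173411-26210661 and Cyp2b13 spans chr7:26061497-26096197, both on the plus strand. Cyp3a11 spans chr5:145854426-145879964 and Cyp3a41a spans chr5:145694049-145720136, both on the minus strand. Cyp2b10 lies at chr7:25897620-25926624 on the plus strand. The other Cyp3a members, all on the minus strand, lie at chr5:137892932-137921619 (Cyp3a13), chr5:145436309-145469723 (Cyp3a16), chr5:145977194-146009618 (Cyp3a25), chr5:145558664-145584730 (Cyp3a41b) and chr5:145773983-145805874 (Cyp3a44). Sequence just upstream of the annotated starts was matched by symbol for all 10 members in RefSeq tables of GRCm38.p6. The 4 windows below are those of Cyp2b9 and its near neighbour Cyp2b13, of Cyp3a11, which differed between diets, and of Cyp3a41a, 1 of 4 Cyp3a members that separated the sexes. Each holds the 250 bases before the RefSeq start, 5′ to 3′ on the gene's strand. The RefSeq start of Cyp3a11 lies inside the GENCODE span given above, so part of its window does too. Capitals mark a match to the C/EBP pattern TTGCNNAA in the Cyp2b windows, and in the Cyp3a windows a match to the direct repeat DR4 (AGNTCA repeated after 4 bases, a type of element that CAR and PXR bind) or to the HNF4 pattern CAAAGTCCA.
Cyp2b9, chr7:26173159-26173408: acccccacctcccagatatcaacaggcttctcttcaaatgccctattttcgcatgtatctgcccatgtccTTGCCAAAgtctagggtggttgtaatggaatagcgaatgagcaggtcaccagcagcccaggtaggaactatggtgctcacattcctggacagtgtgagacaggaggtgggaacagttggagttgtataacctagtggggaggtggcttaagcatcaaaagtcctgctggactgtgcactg
Cyp2b13, chr7:26061245-26061494: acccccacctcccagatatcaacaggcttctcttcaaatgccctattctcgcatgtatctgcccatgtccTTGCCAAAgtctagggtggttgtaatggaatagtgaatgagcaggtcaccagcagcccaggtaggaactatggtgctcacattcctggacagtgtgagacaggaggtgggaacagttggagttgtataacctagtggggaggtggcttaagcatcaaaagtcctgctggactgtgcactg
Cyp3a11, chr5:145879855-145880104: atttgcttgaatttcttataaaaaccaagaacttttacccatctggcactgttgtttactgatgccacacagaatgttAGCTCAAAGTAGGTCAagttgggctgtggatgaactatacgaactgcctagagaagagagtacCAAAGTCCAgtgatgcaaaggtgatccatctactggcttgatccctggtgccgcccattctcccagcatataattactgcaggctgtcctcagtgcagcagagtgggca
Cyp3a41a, chr5:145720137-145720386: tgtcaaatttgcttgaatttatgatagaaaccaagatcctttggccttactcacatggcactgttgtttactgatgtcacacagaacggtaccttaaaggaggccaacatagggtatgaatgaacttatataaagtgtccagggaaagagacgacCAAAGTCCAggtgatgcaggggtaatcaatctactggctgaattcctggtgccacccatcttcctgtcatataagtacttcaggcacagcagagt

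The Cyp2b9 and Cyp2b13 windows were 99.2% identical and differed by T48C and C104T, where positions count from 1 at the 5′ end of the window and the Cyp2b9 base comes first. The Cyp2b10 window was 71% identical to that of Cyp2b9. Cyp3a41a and Cyp3a41b differed only by T222G. On both strands, the DR4 letters were found in the Cyp3a11 window alone among the members, and in 0.103% of all 32851 RefSeq windows of this length. That DR4 match overlaps a single AGGTCA half-site. The HNF4 letters were in the windows of Cyp3a11, Cyp3a16, Cyp3a41a and Cyp3a41b, against 0.384% of all windows, and the C/EBP letters in those of Cyp2b9, Cyp2b10, Cyp2b13 and Cyp3a25, against 9.56%. No member window held the STAT5 letters TTCNNNGAA (7.02% of all windows) or the everted repeat ER6, TGANCT followed after 6 bases by AGNTCA (0.0304%). These matches describe letters in a short window and say nothing about binding.

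Reads of close paralogs can be split between them, so the members were compared with each other over coding sequence and over whole transcripts. Cyp3a41a and Cyp3a41b were 99.9% identical in coding sequence, and 93.7% of all 50-base windows of the Cyp3a41a transcript also occur in Cyp3a41b. Their separate values are therefore uncertain, and their sum is given beside them. Cyp2b9 and Cyp2b13 were 92.7% identical but shared 10.8% of 50-base windows, and Cyp2b9 shared 0.547% with Cyp2b10. Cyp3a11 shared 14.7% of its windows with any other member, while Cyp3a13 and Cyp3a25 shared none.

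**Figure D1:**
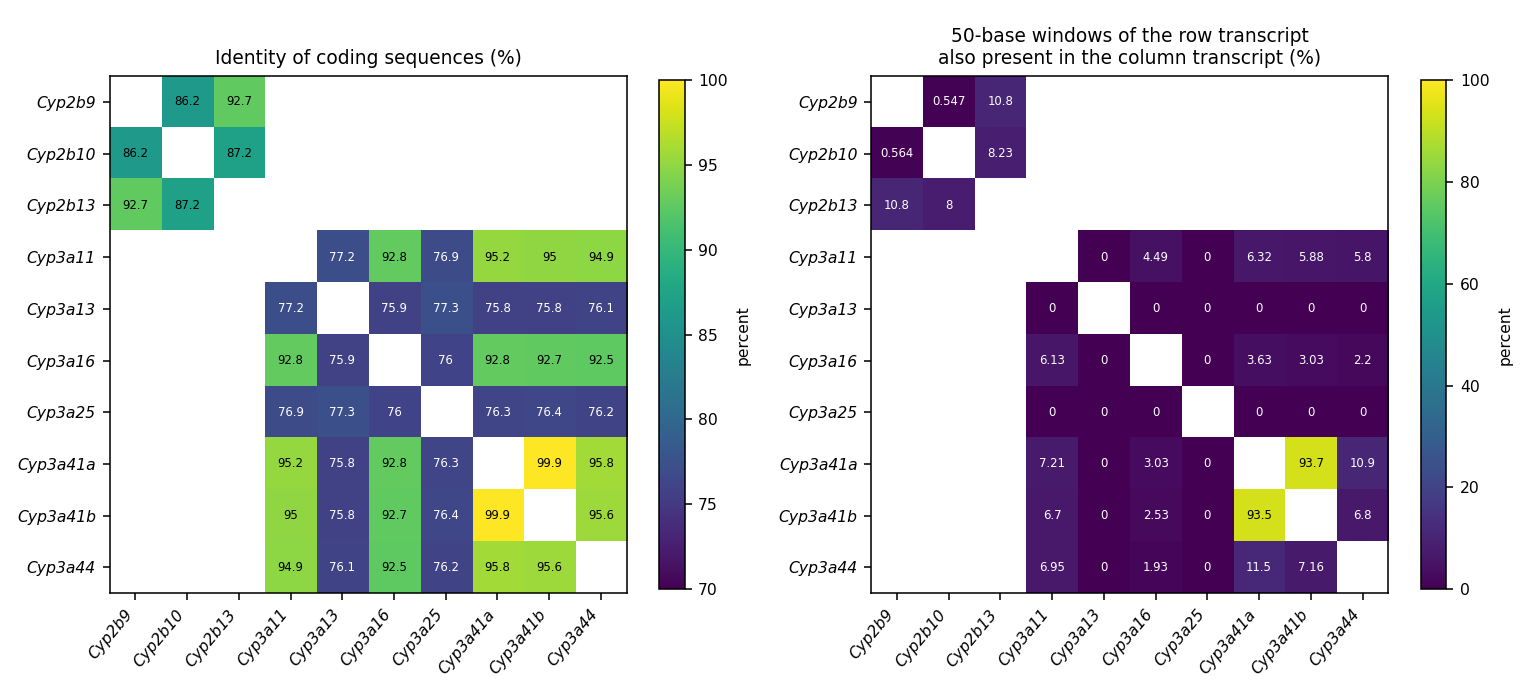
Identity of coding sequences (left, percent) and share of 50-base windows of each row's transcript found in the column's transcript (right, percent), within the Cyp2b and the Cyp3a families. Cyp3a41a and Cyp3a41b stand out with 99.9% identity, and Cyp3a13 and Cyp3a25 share no window with another member.

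Libraries held between 9958935 and 20601955 counts. Values are counts scaled to library size by TMM and given as CPM, so 1 CPM stood for 6.8 to 24.9 counts. Pck1 was lower in every KO library than in every WT library of the same diet: its mean was 3573 ± 1139 CPM (SD, n = 5) in WT chow and 626 ± 175 in KO chow, and 2290 ± 511 in WT NASH and 445 ± 112 in KO NASH. Sex, read from 4 Y-linked genes (2753 to 5230 counts in 13 libraries, 1 to 12 in the other 7) and from Xist, was unevenly spread over the groups. All 5 WT chow libraries were male. Males and females numbered 3 and 2 in KO chow, 1 and 4 in WT NASH and 4 and 1 in KO NASH. Since most members differ between sexes, many results are given from the groups alone and again with sex as a term or within males. A difference given without such a second value does not allow for sex. The 1 WT NASH male, replicate 4, was the smallest library and stood apart from its group in Cyp3a13, Rxra and Nr0b2. It was lowest in the receptor Nr1i3 (22.7 CPM, 104 to 162 in the other 4). Every comparison within males that includes WT NASH rests on this library. The slope of expression on gene length was negative in 6 libraries (-0.328 to -0.236) and above 0 in the other 14 (0.00241 to 0.191). The 6 were KO chow replicates 4 and 5, WT chow replicates 3 to 5 and WT NASH replicate 4. In whole livers, fewer cells of a type and less RNA per cell cannot be told apart. Nothing in the labels names litters or cages, so p-values measure the spread between these libraries.

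Cyp2b9, a steroid hydroxylase of female liver, was the member with the clearest difference between KO and WT mice, seen among males, WT chow having no female. In WT chow, all males, it stood at 2.19, 0.05, 0.10, 0.95 and 0.28 CPM in replicates 1 to 5, from 37, 1, 1, 10 and 4 counts. The 3 KO chow males had 39.7, 6.31 and 408 CPM, from 858, 157 and 5624 counts, and the 2 KO chow females had 1041 and 1008 CPM. Every KO chow library was thus above every WT chow library, also among males alone. On the NASH diet the 4 KO males had 281, 303, 629 and 290 CPM and the KO female 574, whereas the WT male had 0.59 CPM from 4 counts and the WT females 581, 796, 758 and 562. The 7 KO males lay between 6.31 and 629 CPM and the 6 WT males between 0.05 and 2.19, with no overlap, while females of both genotypes lay between 562 and 1041.

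By edgeR's quasi-likelihood F test with Benjamini-Hochberg adjustment over all 14440 tested genes, Cyp2b9 was higher in KO chow than in WT chow by 9.42 on the log2 scale (SE 1.57, adjusted p = 0.0017). It was 7.60 with a sex term (SE 1.31, adjusted p = 0.00214), and among males only 7.69 (SE 1.17, adjusted p = 0.00261). The sex term takes the difference between sexes to be the same in all groups, although Cyp2b9 reached 629 CPM in KO males and 2.19 in WT males. The call without a sex term held when any 1 library was left out (adjusted p 0.000185 to 0.00716). By limma voom with quality weights it was lost (7.45, SE 3.20, adjusted p = 0.0674). On the NASH diet, where 4 of the 5 WT libraries were female, the difference between the groups was not called (log2 fold change -0.38, SE 1.07, adjusted p = 0.861). Among males the KO value was higher by 9.35 (SE 2.73, adjusted p = 0.0379), against 1 WT male. The median over all genes in that fit was 0.19. The WT diet difference of 9.53 (SE 1.57, adjusted p = 0.00139) set 4 females and 1 male against 5 males: with a sex term it was 6.52 (SE 1.87, adjusted p = 0.10), and among males -0.35 (SE 2.40, adjusted p = 0.963).

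Cyp2b9 was also the 1 member with a called interaction, the change in the KO effect from chow to the NASH diet (-9.80, SE 1.82, adjusted p = 0.0348). Among all genes 0.139% were called. The call was lost when any of 14 of the 20 libraries was left out (adjusted p 0.00297 to 0.0895 over all 20). Among males, where WT NASH held 1 library, the interaction was 1.66. With the sex term it was -5.37 (SE 2.18, adjusted p = 0.607), where 0.0277% of all genes and no member were called. There, 1 member and 1027 of 14440 genes had an unadjusted p under 0.05. Whether the KO effect on the NASH diet differed between males and females was tested with 1 coefficient for each genotype, diet and sex, a fit chosen after seeing the data. The male minus female difference for Cyp2b9 was 9.60 (SE 2.74, adjusted p = 0.361). That fit rests on 1 WT male and 1 KO female on the NASH diet, so its calls are not set against all genes.

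Cyp2b13, the near neighbour of Cyp2b9 with an almost identical upstream window, is another female-predominant steroid hydroxylase. It was at 0 to 0.30 CPM in the 6 WT males (at most 3 counts each) and at 57.5 to 373 CPM in the 7 females. The KO chow males had 0.09, 0.08 and 4.07 CPM, from 2, 2 and 56 counts. The KO NASH males had 5.50, 1.74, 24.1 and 5.44 CPM, from 129, 28, 503 and 120 counts. All 4 KO NASH males were thus above the WT NASH male, whose 0 counts allow up to 0.441 CPM (3 counts, counting error only), but the chow males overlapped. Cyp2b9, which shares 10.8% of 50-base windows with Cyp2b13, had 281 to 629 CPM in these 4 KO males. Whether some of its reads were counted for Cyp2b13 was not tested. From the groups alone Cyp2b13 was higher in KO chow by 9.46 (SE 2.38, adjusted p = 0.0243) and in WT NASH over WT chow by 11.52 (SE 2.47, adjusted p = 0.00919). These were 4.23 (SE 1.56, adjusted p = 0.128) and 5.15 (SE 1.81, adjusted p = 0.197) with the sex term. That term takes the difference between sexes to be the same in all groups, although KO males had up to 503 counts and WT males at most 3. The value of 5.15 was not seen between WT males: the male on the NASH diet had 0 counts and those on chow at most 3. The KO chow call was lost without WT chow replicate 2, 3, 4 or 5 (adjusted p up to 0.0588). WT chow held 5 counts of this gene in all.

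Cyp2b10, the CAR target, moved the other way on chow. Its levels in WT chow were 358, 313, 488, 164 and 242 CPM, and in KO chow 72.8, 87.4, 57.4, 210 and 32.0 CPM. Only KO chow replicate 4, a male, reached into the WT range, and the 2 lowest values were females. The difference was -1.77 (SE 0.46, adjusted p = 0.0304), and with the sex term -1.35 (SE 0.37, adjusted p = 0.0344). Among males it was -1.33 (SE 0.39, adjusted p = 0.0593), and -1.33 (SE 0.40, adjusted p = 0.0452) from the fit with a coefficient for each genotype, diet and sex. Leaving out WT chow replicate 1 or 3 or KO chow replicate 1, 2 or 3 ended the call (adjusted p 0.0557, 0.0883, 0.0856, 0.0774 and 0.06), and so did a fit of these 2 groups alone (adjusted p = 0.102). On the NASH diet the means were 200 ± 89.0 CPM in WT and 201 ± 80.3 in KO (SD, n = 5 each), a difference of 0.01 (SE 0.45, adjusted p = 0.994). Within KO NASH the female, at 58.0 CPM, was far below the 4 males at 227 to 247. These 4 males all lay above the 3 KO chow males, but the difference among males was not called (0.94, SE 0.40, adjusted p = 0.275).

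**Figure D2:**
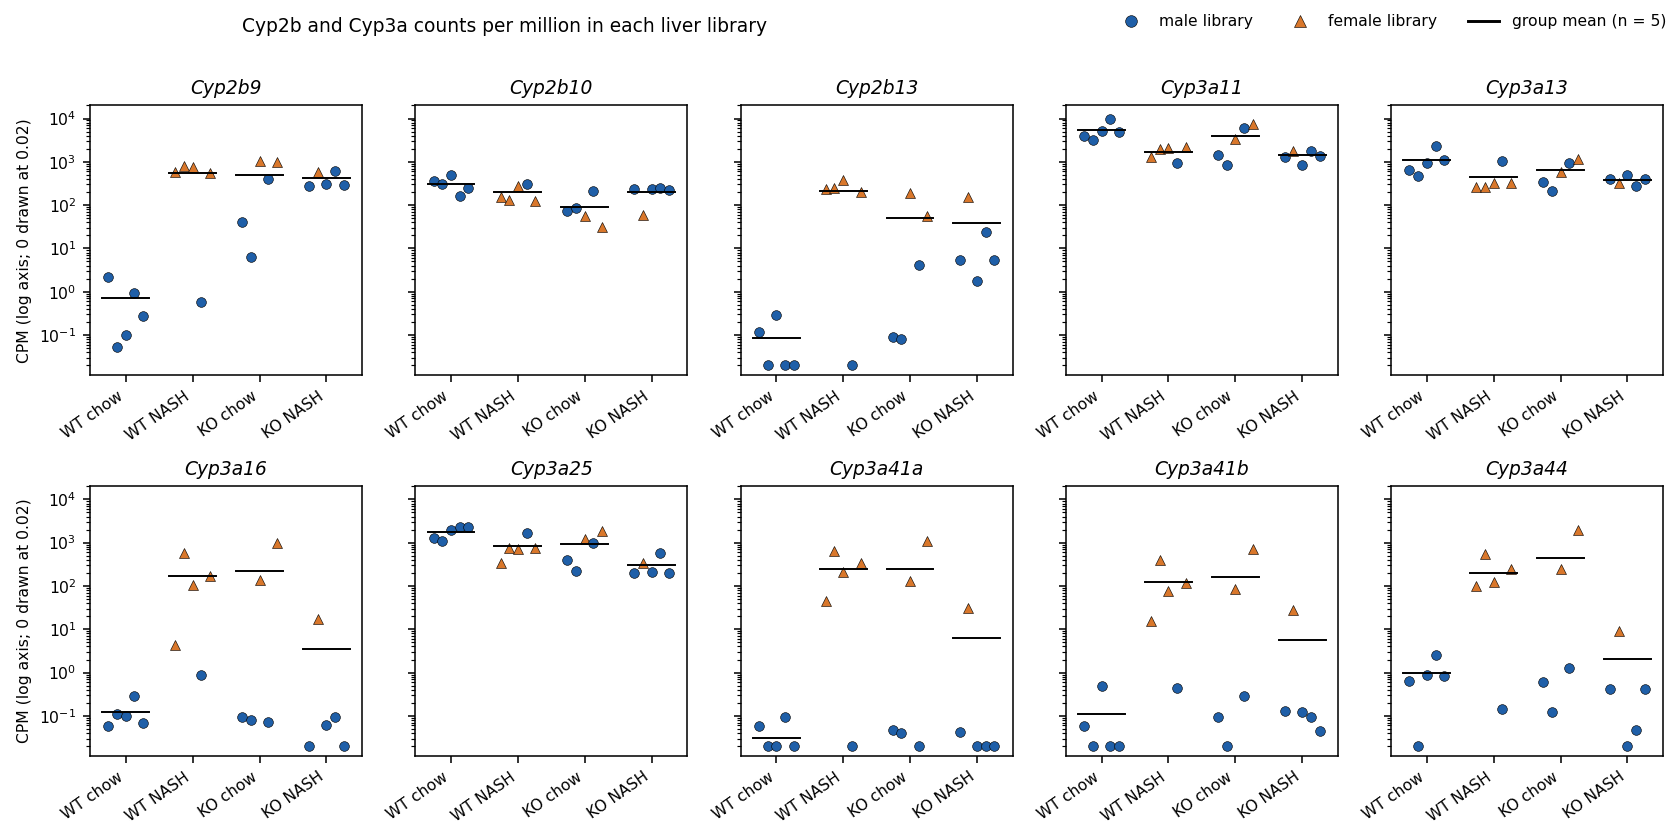
CPM of each member (log axis, 0 drawn at 0.02) in the 20 libraries, by group, with males as circles, females as triangles and the group mean of 5 libraries as a line. Cyp2b9 lies at or under 2.19 CPM in the 6 WT males and at 6.31 or more in the 7 KO males, whereas Cyp3a16, Cyp3a41a, Cyp3a41b and Cyp3a44 stay at or under 2.56 CPM in all 13 males.

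As a share of the summed CPM of the Cyp2b members, Cyp2b10 made up 99.4% to 100% in WT chow. It made up 11.3% to 19.6% in the WT NASH females. In KO chow males Cyp2b9 made up 35.3%, 6.73% and 65.6%, and in KO NASH males 54.1% to 69.8%. The sum of the 3 Cyp2b members itself did not pass the test in KO chow against WT chow (1.05, SE 0.56, adjusted p = 0.315). That difference was 0.07 (SE 0.49, adjusted p = 0.968) with the sex term. The make-up of the family differed between these groups while a difference in its sum was not called.

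**Figure D3:**
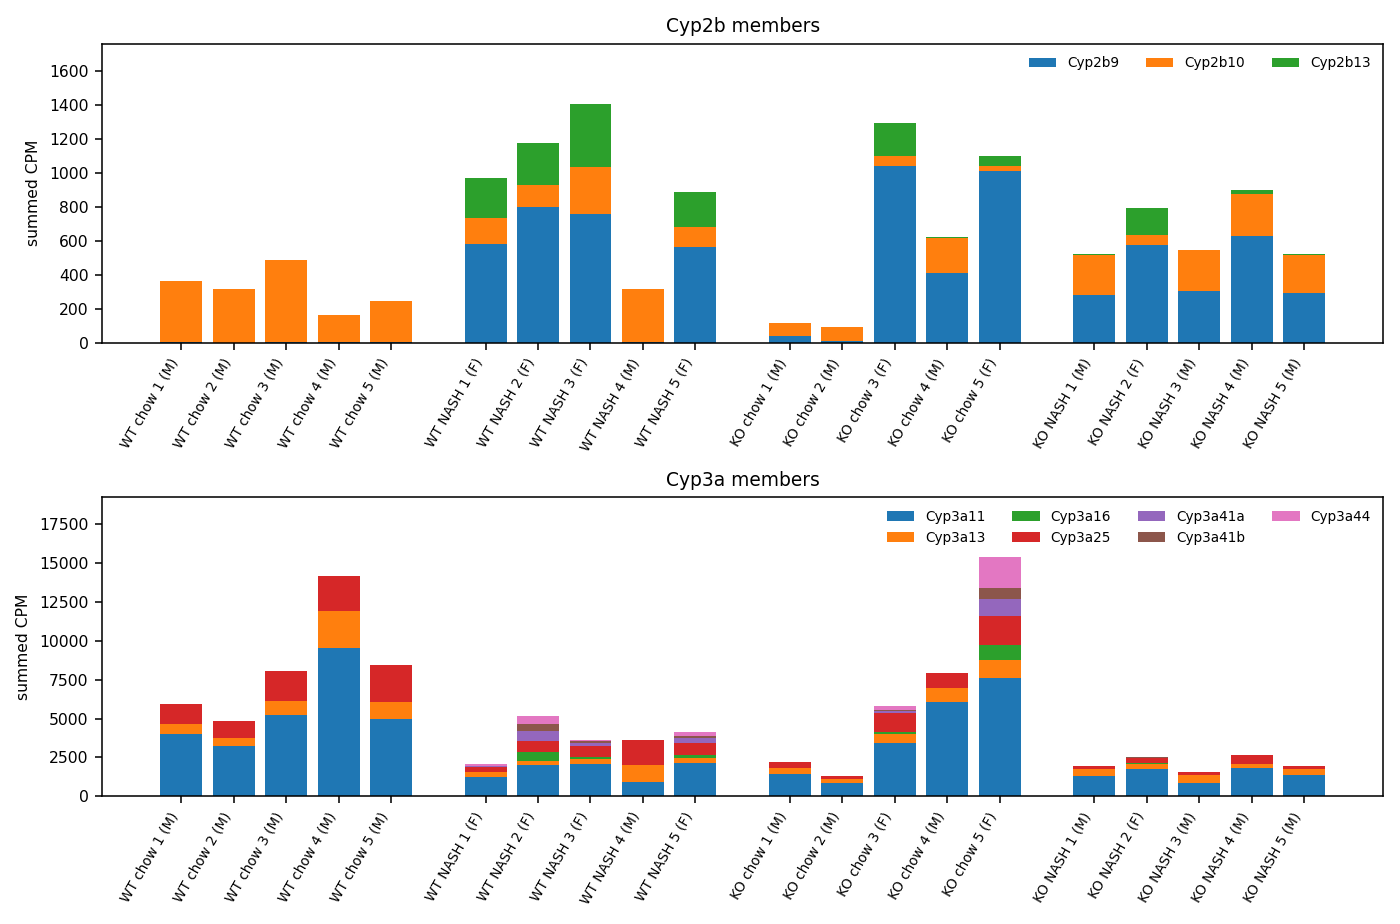
Summed CPM of the Cyp2b members (top) and of the Cyp3a members (bottom) in each library, stacked by gene, with M and F for male and female libraries. Cyp2b10 makes up nearly all of the Cyp2b sum in WT males and Cyp2b9 the larger part in the KO NASH libraries.

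Cyp3a11, the PXR target and the main hepatic Cyp3a enzyme of the mouse, had the highest level of the 10 in every group when CPM was divided by transcript length. Per kilobase its mean on chow was 2302 CPM in WT and 1656 in KO, and on the NASH diet 720 in WT and 604 in KO. Cyp3a25 came next in WT chow, KO chow and WT NASH (895, 463 and 423 CPM per kilobase). In KO NASH Cyp2b9 (221) and Cyp3a25 (152) came next. In WT chow the lowest per-length values, 0.50 or less, belonged to Cyp2b9, Cyp2b13, Cyp3a16, Cyp3a41a, Cyp3a41b and Cyp3a44.

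Cyp3a11 was lower on the NASH diet. WT chow libraries had 3994, 3254, 5201, 9536 and 4990 CPM and WT NASH libraries 1261, 1987, 2096, 934 and 2164, so the groups did not overlap, and the WT NASH male was the lowest of all 10. The difference was -1.68 (SE 0.47, adjusted p = 0.0394), and with the sex term -2.40 (SE 0.56, adjusted p = 0.0414). This was the 1 member called there with the sex term. Leaving out any of 8 libraries ended the call without that term, each adjusted p lying between 0.0506 and 0.108: WT chow replicates 3, 4 and 5 and every WT NASH replicate. Over the 14 libraries of positive length slope, a choice made after seeing the data, the difference was -0.94 (SE 0.42, adjusted p = 0.209); with slope as a term it was -1.19 (SE 0.40, adjusted p = 0.0539), and with sex and slope terms -2.05 (SE 0.45, adjusted p = 0.0126). In KO mice the libraries on chow had 1437, 866, 3440, 6033 and 7636 CPM and those on the NASH diet 1325, 1767, 853, 1805 and 1330. These overlapped, with a difference of -1.45 (SE 0.47, adjusted p = 0.087). KO chow replicates 4 and 5, the 2 high ones, were the 2 libraries of that group with a negative length slope. That difference was called by DESeq2 (-1.47, adjusted p = 0.022) and without KO chow replicate 2 (-1.71, adjusted p = 0.0379). The genotype difference in Cyp3a11 was not called by edgeR, either on chow (-0.47, SE 0.46, adjusted p = 0.612) or on the NASH diet (-0.25, SE 0.46, adjusted p = 0.778). By limma voom with quality weights Cyp3a11 was called lower in KO on chow (-1.69, SE 0.43, adjusted p = 0.00523).

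Cyp3a25 was at 1293, 1095, 1919, 2287 and 2353 CPM in WT chow. The KO chow males had 400, 222 and 958 CPM, all below these, and the KO chow females 1184 and 1863 CPM, inside their range. On the NASH diet the WT male had 1662 CPM and the KO males 200, 206, 588 and 200, while the WT females had 347, 739, 709 and 769 and the KO female 331. From the groups alone the differences were -0.95 (SE 0.49, adjusted p = 0.298) on chow and -1.47 (SE 0.49, adjusted p = 0.063) on the NASH diet, neither called, although 2 of 33 and 10 of 35 alternatives called them. Among males they were -1.75 (SE 0.53, adjusted p = 0.0649) and -2.45 (SE 0.66, adjusted p = 0.0275). From the fit with a coefficient for each genotype, diet and sex they were -1.75 (SE 0.49, adjusted p = 0.0342) and -2.44 (SE 0.62, adjusted p = 0.0155). The male minus female difference of the KO effect on the NASH diet was -1.48 (SE 0.95, adjusted p = 0.525), so a difference between sexes was not called. Length slope moved with these values. Among chow males of positive slope, WT had 1293 and 1095 CPM and KO 400 and 222, and among those of negative slope WT had 1919, 2287 and 2353 and KO 958. With sex and slope terms the KO difference was -1.02 (SE 0.37, adjusted p = 0.0719) on chow and -0.65 (SE 0.39, adjusted p = 0.304) on the NASH diet.

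Cyp3a13 ranged on chow from 462 to 2375 CPM in WT and from 212 to 1140 in KO livers, and on the NASH diet from 267 to 1042 and from 272 to 488. It passed edgeR's test in none of the comparisons (adjusted p 0.117 to 0.919). The WT NASH male was the outlying value of its group at 1042 CPM, with the 4 females between 267 and 318. That male lay inside the range of the WT chow libraries, all males. Without it Cyp3a13 was lower in WT NASH than in WT chow by a called amount (-1.93, adjusted p = 0.0139). That fit set 4 females against 5 males, so diet and sex cannot be told apart in it. With length slope as a term Cyp3a13 was called at -0.88 (adjusted p = 0.0472), as it was with a replicate block (-1.28, adjusted p = 0.0414). With the sex term it was not called in any comparison. By limma voom with quality weights Cyp3a13 was called in WT NASH against WT chow (-1.77, adjusted p = 0.000684), in KO chow against WT chow (-1.53, adjusted p = 0.00453) and for the interaction (1.81, adjusted p = 0.022).

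Cyp3a16, Cyp3a41a, Cyp3a41b and Cyp3a44 separated female from male libraries. The highest value in any male of either genotype was 0.88 CPM for Cyp3a16, 0.095 for Cyp3a41a, 0.50 for Cyp3a41b and 2.56 for Cyp3a44. Females ranged from 4.26 to 963 CPM for Cyp3a16, 31.4 to 1118 for Cyp3a41a, 15.3 to 706 for Cyp3a41b and 9.19 to 1967 for Cyp3a44, with no overlap with males for any of them. The highest female in each case was KO chow replicate 5 (963, 1118, 706 and 1967 CPM). The KO NASH female was low, at 17.6, 31.4, 27.5 and 9.19 CPM, while the WT NASH females had 4.26 to 567, 45.8 to 652, 15.3 to 402 and 97.5 to 539 CPM. The 7 KO males, all with more Cyp2b9 than any WT male, had none of these 4 genes above the highest WT male.

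All 4 were called higher in WT NASH than in WT chow and in KO chow than in WT chow from the groups alone. For Cyp3a44 the differences were 7.74 (SE 2.29, adjusted p = 0.0498) and 8.88 (SE 2.39, adjusted p = 0.0343). For Cyp3a16 they were 10.52 (SE 2.95, adjusted p = 0.0394) and 10.89 (SE 2.97, adjusted p = 0.037), and for Cyp3a41b 10.43 (SE 2.95, adjusted p = 0.0409) and 10.81 (SE 2.97, adjusted p = 0.0381). Cyp3a41a was called at adjusted p = 0.0352 and 0.037, and no fold is given because WT chow held 2 counts of it in all. The folds of Cyp3a16 and Cyp3a41b also rest on few counts, at most 3 and 5 in any WT chow library. So does that of the sum of Cyp3a41a and Cyp3a41b below. The WT NASH calls of all 4 were lost without any 1 of the WT chow libraries or without WT NASH replicate 2, 3 or 5 (adjusted p up to 0.119). Those of Cyp3a41b and Cyp3a44 were also lost without WT NASH replicate 1, and that of Cyp3a44 without KO chow replicate 3 or KO NASH replicate 1, 3, 4 or 5. The KO chow calls of all 4 were lost without any 1 of the WT chow libraries or without KO chow replicate 5 (adjusted p up to 0.0873). None was called with the sex term. There, Cyp3a44 differed by -1.59 (SE 1.40, adjusted p = 0.655) and 0.11 (SE 1.18, adjusted p = 0.978), Cyp3a16 by 0.43 and 1.12, and Cyp3a41b by 0.70 and 1.58, with adjusted p between 0.675 and 0.947 for these last 2 genes. The sum of Cyp3a41a and Cyp3a41b was higher by 11.61 (SE 3.19, adjusted p = 0.0362) and 11.74 (SE 3.20, adjusted p = 0.0366) and, with the sex term, by 0.77 (SE 1.48, adjusted p = 0.854) and 1.38 (SE 1.35, adjusted p = 0.651). In KO NASH against WT NASH none of the 4 was called from the groups alone, which held 4 females in WT and 1 in KO. Of the alternatives, 12 of 35 called Cyp3a44 lower there, 6 of 35 Cyp3a16, 4 of 34 Cyp3a41a and 2 of 35 Cyp3a41b. Since WT chow had no female, the levels of these genes in a WT female on chow were not measured, and the diet and sex of the 4 WT NASH females cannot be told apart.

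Counted over the 10 members, 7 passed the test in WT NASH against WT chow (6 higher, 1 lower), where 5.93% of all tested genes did. Only Cyp3a11 passed with the sex term, against 1.11% of genes. Within males WT NASH held 1 library, so calls in this comparison are not set against all genes. In KO chow against WT chow 7 members passed (6 higher, 1 lower), against 5.53% of genes. Cyp2b9, higher, and Cyp2b10, lower, were the 2 that passed with the sex term, against 5.84%. In males 1 of 8 passed (6.23% of genes), and 3 of 10 in the fit with a coefficient for each genotype, diet and sex (8.66%), namely Cyp2b9, Cyp2b10 and Cyp3a25. The median log2 fold change of the members was 8.63 for the WT diet and 9.15 for KO chow, and with the sex term 0.06 and 0.38, against a median over all genes of 0.01 or closer to 0 in these 4 cases.

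In KO NASH against WT NASH no member was called by edgeR, where 9.65% of all genes were. At an unadjusted p under 0.05 there were 5 members and 3701 of all 14440 genes. The calls by DESeq2 and limma voom numbered 3 and 6 (shares over all genes not given). With the sex term no member was called, against 4.33% of genes. There, 4 members had an unadjusted p under 0.05, as did 3126 genes. Within males 3 of 8 were called, Cyp2b9 higher and Cyp3a16 and Cyp3a25 lower, against 13% of genes. Cyp3a16 rests there on 6 counts in the WT male, and in the fit with a coefficient for each genotype, diet and sex it was not called (adjusted p = 0.231), which left 2 members called against 15.1% of genes. In KO NASH against KO chow none was called by edgeR, against 3.29% of genes. DESeq2 called 4 and limma voom none (shares over all genes not given). An unadjusted p under 0.05 was found in edgeR for 7 members and 3199 of 14440 genes. With the sex term again no member was called by edgeR, against 3.98% of genes. There, 7 members and 3349 genes had an unadjusted p under 0.05. In males 0 of 8 members were called, against 0.37% of genes. An unadjusted p under 0.05 was found there for 2 members and 2459 of 15930 genes.

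**Figure D4:**
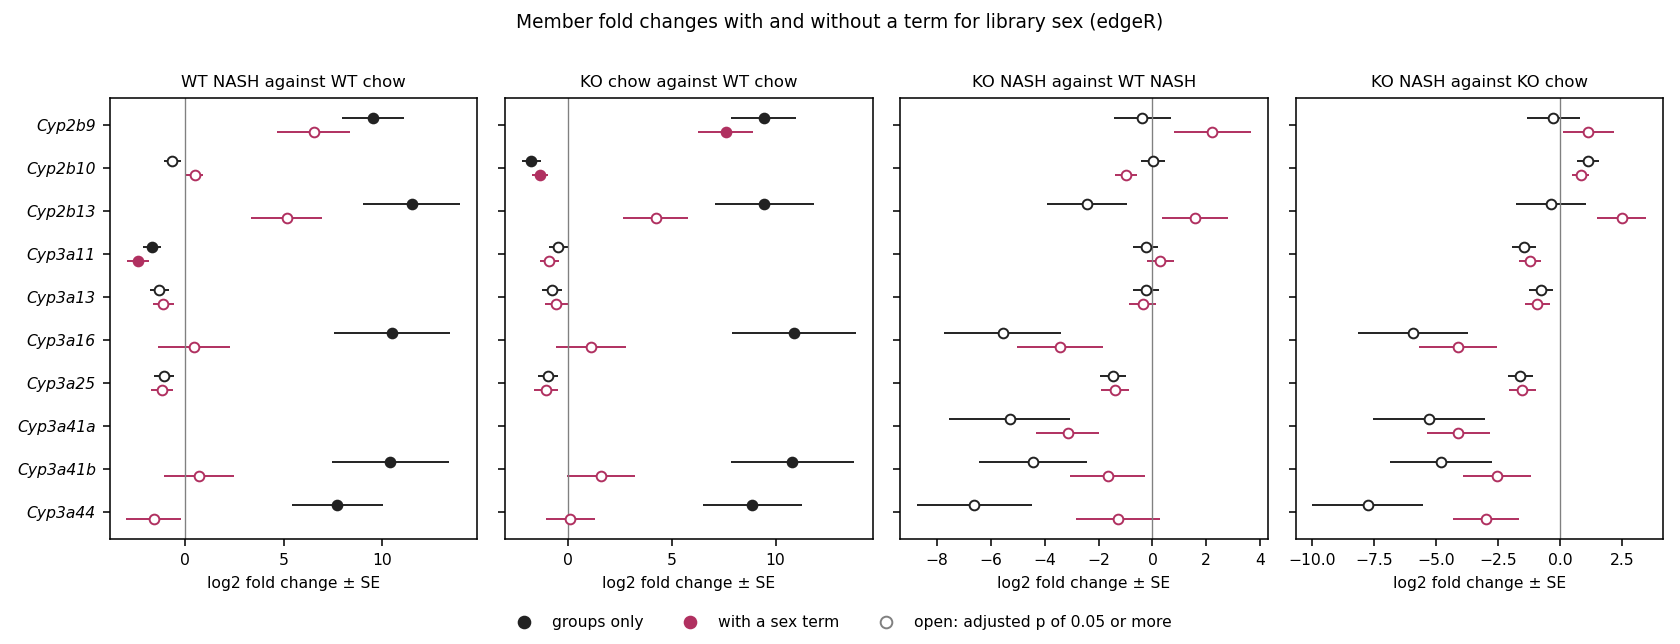
Log2 fold change ± SE of each member in 4 comparisons, from the groups alone (black) and with a term for sex (magenta), filled where the adjusted p was under 0.05. Cyp3a41a is left out against WT chow, which held 2 counts of it; with the sex term Cyp2b9 and Cyp2b10 stay called in KO chow and Cyp3a11 in WT NASH.

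Of the 8 receptor and partner genes above these enzymes, 2 passed the test in any comparison. Nr1i3 (CAR) had means on chow of 155 ± 35.9 CPM in WT and 179.9 ± 42.3 in KO, and on the NASH diet of 113 ± 54.7 and 161 ± 49.2 (SD, n = 5 each). For Nr1i2 (PXR) these 4 means were 112 ± 28.0, 110.5 ± 16.3, 79.1 ± 16.1 and 88.8 ± 13.3 CPM. Neither receptor was called in any comparison. Nor were their partner Rxra (group means 264 to 490.0 CPM), the liver factor Hnf4a (339 to 735), or the co-regulators Ncoa1 (12.7 to 24.9) and Ncor1 (99.3 to 133). The nearest to a call was Hnf4a at adjusted p = 0.0561, named so after its values were seen. Nr0b2, which encodes the repressor SHP, a target of the bile acid receptor, was lower in KO chow (-2.95, SE 0.67, adjusted p = 0.0139), at 3.76 ± 3.38 CPM against 28.7 ± 16.0. It was -3.24 with the sex term (SE 0.75, adjusted p = 0.0141). KO NASH livers also had less of it than WT NASH livers (-2.06, SE 0.64, adjusted p = 0.0448), and with the sex term the difference was -1.95 (SE 0.65, adjusted p = 0.0878). Nr3c1, the glucocorticoid receptor, was lower in KO NASH than in WT NASH (-0.64, SE 0.18, adjusted p = 0.027), a call lost with the sex term (-0.52, adjusted p = 0.128). So 1 of the 8 genes was called on chow and 2 on the NASH diet between genotypes, against 5.53% and 9.65% of all genes. Between diets none of the 8 was called, against 5.93% of all genes in WT and 3.29% in KO. An unadjusted p under 0.05 was found for 4 in WT and 1 in KO, and for 3191 and 3199 of 14440 genes.

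Por, the reductase that passes electrons to all microsomal P450s, was not called in any comparison, with means from 394 ± 141 CPM in WT NASH to 697 ± 322 in KO chow. Of the 5 redox partners, Cyb5b, the outer mitochondrial membrane cytochrome b5, was higher in WT NASH than in WT chow (1.27, SE 0.22, adjusted p = 0.00202; sex term 1.17, adjusted p = 0.0389). In KO NASH against WT NASH 2 of the 5 were lower, where 9.65% of all genes were called in either direction. Cyb5a, the microsomal cytochrome b5, differed by -1.92 (SE 0.57, adjusted p = 0.0374; sex term -1.94, adjusted p = 0.0704), and Cyb5b by -0.77 (adjusted p = 0.0304; sex term -0.69, adjusted p = 0.111).

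Among 24 tested genes known as other CAR or PXR targets, 2 were higher and 6 lower in KO chow than in WT chow, with a median log2 fold change of -0.42, against 438 higher and 360 lower and a median of 0.00 among all 14440 genes. The 6 lower ones, named here after their values were seen, were the carboxylesterase Ces2a and the drug-metabolising P450 genes Cyp2c29, Cyp2c37, Cyp2c50, Cyp2c54 and Cyp2c55, with Cyp2c29 at -3.58 (adjusted p = 0.00168). With the sex term Cyp2c29, Cyp2c37, Cyp2c50 and Cyp2c54 remained called and Ces2a and Cyp2c55 did not. These P450 genes have close relatives in the mouse genome, so reads could be split among them. Gsta1, a glutathione transferase, had 2 counts in WT and 56 in KO livers on chow, 6 and 173 on the NASH diet, and was called higher in KO on both diets. On the NASH diet the difference was 4.28 (SE 0.90, adjusted p = 0.00606), or 4.11 with the sex term (adjusted p = 0.0274). There, 1 target was higher and 5 were lower in KO, with a median of -0.78. Among all 14440 genes 708 were higher and 685 lower, with a median of 0.00. With the sex term 1 target was higher and 6 were lower, against 291 and 334 of all genes. The aldo-keto reductase gene Akr1b7 was the target with the largest called change between diets in KO mice (-3.54, SE 0.76, adjusted p = 0.0191), and Gstm3, a glutathione transferase, that in WT mice (2.89, SE 0.46, adjusted p = 0.00098).

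**Figure D5:**
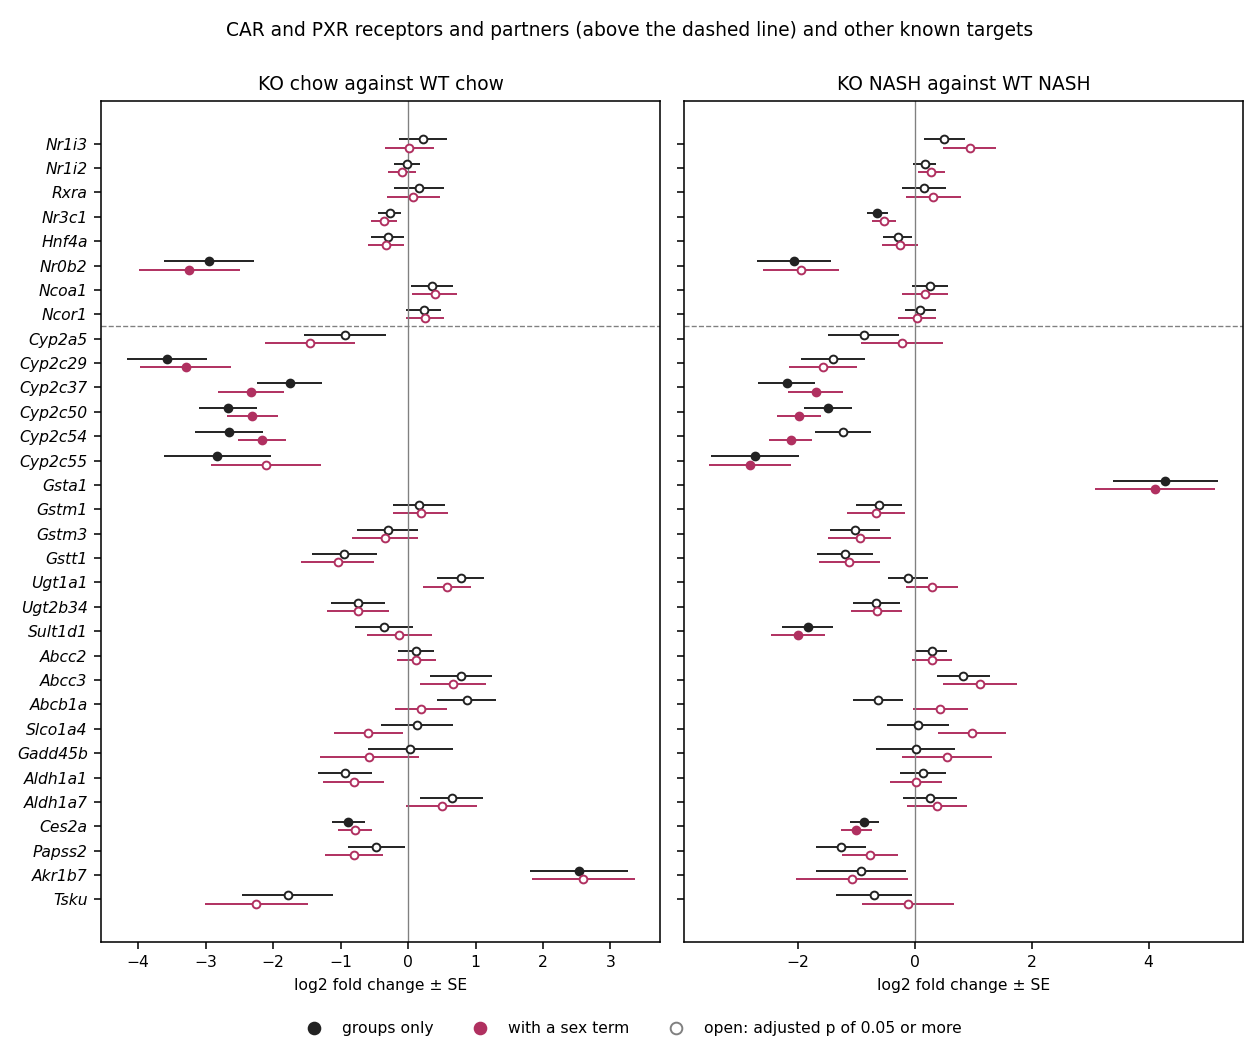
Log2 fold change ± SE of KO against WT on chow (left) and on the NASH diet (right) for 8 receptor and partner genes and 24 other known targets, from the groups alone (black) and with a sex term (magenta), filled where the adjusted p was under 0.05. Gsta1 is left out on chow, where WT held 2 counts; Nr0b2 lies to the left of 0 on both diets.

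Of 4 further Cyp2b and Cyp3a genes in the table, Cyp2b19 and Cyp2b23 had 0 and 6 counts in all and were not tested. Cyp3a57 was higher in KO chow than in WT chow (3.11, SE 0.90, adjusted p = 0.0454), a call lost with the sex term (1.73, adjusted p = 0.341). With that term it was called higher in KO NASH than in WT NASH (4.33, SE 1.10, adjusted p = 0.0303; 14 and 132 counts). Cyp3a59 was lower in KO NASH than in KO chow (-2.30, SE 0.60, adjusted p = 0.0406), a call lost with the sex term (-1.68, adjusted p = 0.094).

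Of 10 genes known as female-biased in liver, 6 were called higher and 1 lower in WT NASH than in WT chow, where 5.93% of all genes were called. In KO chow 3 were higher than in WT chow, against 5.53% of all genes. With the sex term these counts became 0 and 1 (1.11% of all genes called), and 1 and 0 (5.84%). Genes of largest called change in single comparisons of that list were Sult2a1 in WT NASH against WT chow (2 counts in WT chow, 40483 in WT NASH), A1bg in KO chow against WT chow (log2 fold change 10.67, adjusted p = 0.0346; sex term 0.68, adjusted p = 0.804), Cux2 in KO NASH against WT NASH (-5.21, adjusted p = 0.00389; sex term -3.16, adjusted p = 0.0306) and Cyp17a1 in KO NASH against KO chow (-4.10, adjusted p = 0.0371; sex term -2.60, adjusted p = 0.0099).

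Of 11 male-biased genes, none was called higher. Hsd3b5, a steroid dehydrogenase of male liver, was lower in KO chow than in WT chow (-6.92, SE 1.96, adjusted p = 0.0429), also with the sex term (-6.16, SE 0.80, adjusted p = 0.000289). With the sex term 3 of the 11 were lower in KO on chow and 3 on the NASH diet, where 5.84% and 4.33% of all genes were called. From the groups alone 1 was lower on each diet, against 5.53% and 9.65%. Selenbp2 had the largest called change on the NASH diet (-4.79, SE 1.13, adjusted p = 0.0126; sex term -4.33, adjusted p = 0.0126). Cyp4a12b, a male fatty acid hydroxylase, was lower in WT NASH than in WT chow (-5.95, adjusted p = 0.046; sex term -3.63, adjusted p = 0.0135). Their part in the Cyp2b9 values of KO males was not tested.

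In the growth hormone pathway, known to set the sex-specific members, 1 of 8 genes was lower in KO chow and 2 in KO NASH, where 5.53% and 9.65% of all genes were called in either direction. Ghr, the growth hormone receptor, fell by 0.93 on chow on the log2 scale (SE 0.24, adjusted p = 0.0276; sex term -0.94, adjusted p = 0.0402). It differed by -1.09 on the NASH diet (adjusted p = 0.00812; sex term -1.08, adjusted p = 0.0289). Igf1, its circulating effector, was lower in KO NASH (-1.21, SE 0.25, adjusted p = 0.00481; sex term -1.35, adjusted p = 0.00658). Stat5a was higher in WT NASH than in WT chow (1.75, SE 0.37, adjusted p = 0.00804), as was Stat5b (1.31, adjusted p = 0.0171), and neither call held with the sex term (adjusted p = 0.172 and 0.204).

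The tissue was checked against markers of hepatocytes and of other cells. The summed CPM of 5 hepatocyte markers ranged on chow from 44804 to 116472 in WT and from 46134 to 108113 in KO, and on the NASH diet from 46423 to 93097 in WT and from 54200 to 64873 in KO. Serpina1c was the 1 hepatocyte marker called, lower in KO on both diets (-1.63 and -1.14). The called markers of other cells were Cd68 of macrophages, higher in WT NASH and KO chow than in WT chow; Cd3e of T cells, higher in WT NASH than in WT chow; Kdr and Lyve1 of endothelium, higher in KO NASH than in WT NASH; Sox9 of cholangiocytes and Col1a1 of fibroblasts, higher in KO NASH than in KO chow; Lgals4 of intestine, lower in WT NASH than in WT chow and higher in KO NASH than in WT NASH; and Cela1 of pancreas, lower in KO NASH than in WT NASH. These were 1 of 6, 1 of 4, 2 of 5, 1 of 5, 1 of 5, 1 of 5 (2 tested) and 1 of 4 (1 tested) listed markers. Among all genes 5.93% were called in WT NASH and 5.53% in KO chow, each against WT chow. Between genotypes on the NASH diet 9.65% were called, and between diets in KO 3.29%. With the sex term the calls of Cd68, Cd3e, Kdr and Lyve1 were lost, and the counts of the other lists were unchanged. No adipocyte marker passed the low-count filter, but their summed CPM reached 52.5 in KO NASH, against at most 2.61 in the other groups. Summed macrophage markers ranged on chow from 277 to 946 CPM in WT and 419 to 1044 in KO, and on the NASH diet from 415 to 773 in WT and 297 to 406 in KO, and summed endothelial markers from 111 in WT NASH to 264 in KO NASH. Summed pancreas markers reached 107 CPM in WT NASH and 24.0 in the other groups. These genes were named after their values were seen, and their part in the results was not tested.

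By Spearman's rho of log2 CPM over the 20 libraries, which share sex, diet and genotype groups, the genes most like Cyp2b9 outside the members were Abcd2, a peroxisomal fatty acid transporter (0.947), Cyp2a22 (0.931) and Fam19a2 (0.903), and Cyp2b13 had rank 7 among all genes (0.879). For Cyp2b10 they were Kbtbd4 (0.874), Nox4 (0.839) and Slc22a28 (0.829). For Cyp3a11 they were Mrpl24 (0.910), Naaa (0.901) and Kng1 (0.866), with Cyp3a25 at 0.785. For Cyp3a41a they were A1bg (0.885), Plppr1 (0.869) and Slc16a6 (0.841), with Cyp3a44 next at 0.838. Cyp2b9 and Cyp2b10 had a rho of -0.586, which pools sexes and genotypes. Among the 3 KO chow males, replicate 4 had the most of both (408 and 210 CPM).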

How the data were processed

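RNA was extracted with Trizol from the livers of 20 mice and sequenced on Illumina libraries, per the labels' protocols. The submitters' processing notes name HISAT2 2.0.4 and GRCm38; no source used here states the counting program, annotation or strand setting, so antisense reads cannot be told apart. The authors deposited raw counts per gene symbol, 1 column per library. Columns named HFD were taken for the NASH groups by elimination, as the rest name chow.

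The count model was edgeR 4.0.16 in R 4.3.3 (TMM, filterByExpr with a minimum count of 10, which kept 14440 genes with 99.91% of counts, including all 10 members; 1 coefficient per group over 20 libraries; quasi-likelihood F test). Calls needed an adjusted p (Benjamini-Hochberg) below 0.05, and fold changes are unshrunk. The common biological coefficient of variation was 39.0%. In the fit of males only the filter kept 8 members. Alternatives used DESeq2 1.42.0, limma 3.58.1, sex, gene-length slope, replicate number, summed paralogs and left-out libraries. The procedure was tested on simulated data. KO NASH replicates 1 and 5 were the most alike pair of any group (chi-square 7.81 per gene, next pair 21.5), above sampling noise, and were counted as 2 samples. Sex was called male from 100 or more counts over Ddx3y, Kdm5d, Eif2s3y and Uty. Per-length levels used 1 GENCODE transcript per gene, and the coding sequences compared were longest open reading frames.

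Named were the 10 members; Pck1; all receptor genes and Por; in each other list the called gene of largest fold change per comparison; and, for 4 members, the 3 genes of most similar level. A gene that this rule also takes is not reported here. The members and gene lists were chosen with earlier results of these data known.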

Additional observations from a re-analysis of the deposited data

Results flagged for a closer look

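Each group of 5 libraries was searched for a value standing far from the other 4, for the members, the receptor and partner genes and Por (76 groups of values). A value was taken when its gap to the nearest other exceeded 0.71 of the range, which chance does in about 1 in 20 groups, and 17 did.

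In KO NASH the 1 female, replicate 2, stood apart from the 4 males in 6 members. It had 58.0 CPM of Cyp2b10 (227 to 247 in males), 158 of Cyp2b13 (1.74 to 24.1), 17.6 of Cyp3a16, 31.4 of Cyp3a41a, 27.5 of Cyp3a41b and 9.19 of Cyp3a44. In WT NASH the 1 male, replicate 4, had 1042 CPM of Cyp3a13 (267 to 318 in females), 218 of Rxra (458 to 551) and 79.3 of Nr0b2 (26.1 to 31.2). KO chow replicate 5, 1 of 2 females, had 963 CPM of Cyp3a16, 1118 of Cyp3a41a, 706 of Cyp3a41b and 1967 of Cyp3a44, and the other female had 134, 133, 87.0 and 249.7.

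WT NASH replicate 2, 1 of 4 females, had 402 CPM of Cyp3a41b, with the others at 115 or less. The remaining values were 65.1 CPM of Nr1i2 in KO NASH replicate 3 (93.2 to 96.1 in the others), and in WT chow 0.285 CPM of Cyp3a16 in replicate 4 and 0.498 of Cyp3a41b in replicate 3, from 3 and 5 counts. The KO effect on Cyp2b9 differed between diets by -9.80 on the log2 scale (edgeR, adjusted p = 0.0348), where the sex of the libraries differed too.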

How the results depend on the processing

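Of 1624 member values recomputed under an alternative, 1377 kept their side of the threshold, of which 61 changed sign but were called in neither fit. A further 151 lost a call, 85 gained one and 11 changed sign where a call was involved. Counts of called members are given in the order diet in WT, genotype on chow, genotype on the NASH diet, diet in KO and interaction, which were 7, 7, 0, 0 and 1. RLE size factors and a minimum log2 fold change of 1 gave the same 5 counts. So did Cyp3a41a summed with Cyp3a41b, where the result of the 1 sum was entered for both members. Other counts in that order were 7, 7, 1, 0 and 4 with no low-count filter, 7, 7, 3, 4 and 6 with DESeq2, 7, 4, 6, 0 and 2 with limma voom, 7, 7, 1, 0 and 6 with length slope as a term, and 6, 7, 0, 0 and 0 with KO NASH replicates 1 and 5 summed. A sex term gave 1, 2, 0, 0 and 0, sex and slope terms 2, 2, 1, 0 and 0, males only 0, 1, 3, 0 and 0, and summed families 0 throughout. Fits of only the groups compared gave 3, 1, 2 and 0. Chosen after seeing the data, the 14 libraries of positive slope gave 1, 2, 2, 1 and 0, and a coefficient for each genotype, diet and sex gave 3 and 2 for KO against WT in males on chow and on the NASH diet. The cause was not tested for any of these. Shares over all genes are given above for the sex term, males and the coefficient for each genotype, diet and sex. For the other alternatives they are not given, so those counts cannot be read against all genes.

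With a replicate block the counts were 7, 6, 3, 0 and 0. The numbers were not taken as pairs, since the correlation of same-numbered libraries ranged from -0.481 to 0.658. Leaving out 1 library gave 2 to 7, 1 to 7, 0 to 4, 0 to 3 and 0 to 6 calls.

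Where a call was involved, directions changed as follows, and the cause was not tested. In males only, Cyp2b9 was at -0.35 for the WT diet, 9.35 for KO on the NASH diet and 1.66 for the interaction, Cyp3a16 at -0.49 in KO chow, and Cyp3a44 at -2.72 for the WT diet and -0.55 in KO chow. With the sex term the WT diet values of Cyp3a41a and Cyp3a44 were -0.30 and -1.59. With a coefficient for each genotype, diet and sex, males were at 9.36 for Cyp2b9 in KO NASH, and at -0.46 for Cyp3a16 and -0.55 for Cyp3a44 in KO chow. Depth limits Cyp2b13, Cyp3a16, Cyp3a41a and Cyp3a41b in males, where WT libraries held 0 to 6 counts.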
